A study of Mus musculus with 8 samples.

Results

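Plasma-type secreted proteins are best known as products of the liver, but many of them are also made by cells that line tissues, such as meninges, vessels and fibroblasts. The genes described here encode 7 of them. A2m encodes alpha-2-macroglobulin, a bait that traps proteases, and Cp encodes ceruloplasmin, a copper-binding enzyme that oxidizes iron. Serping1 encodes the C1 inhibitor, a serpin that stops the proteases that start the classical complement pathway. Serpinf1 encodes pigment epithelium-derived factor, a serpin without protease inhibitor activity. C3 is the central component of complement, whose cleavage drives all branches of the cascade, Clu encodes clusterin, a chaperone of the extracellular space, and Vtn encodes vitronectin, an adhesive protein that binds integrins and also restrains the terminal steps of complement. A2m and C3 belong to the same protein family, as do Serping1 and Serpinf1.

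The 7 genes were taken from the 23420 genes of the deposited table by symbol, and all 7 were found there. They were chosen with results of these data in view, because A2m and Cp differ strongly by region, so their differences between regions are given as a description and without a test. RNA-seq was run on head mesenchyme from E12.5 embryos of wild type C57BL/6 mice, dissected free of surface ectoderm and brain after dispase digestion. There were 4 libraries of early migrating mesenchyme (EMM) and 4 of supraorbital mesenchyme (SOM), the tissue above the eye, and each library pooled tissue of 4 to 5 embryos. No sample was treated or carried a mutation.

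Values are normalized counts, that is reads per gene divided by a size factor for each library, and a group is given as mean ± SD with n = 4 libraries. Recovered totals were 12.7 to 22.4 M reads in EMM and 16.8 to 33.7 M in SOM. A gene was tested if it reached a normalized count of 10 in at least 4 libraries, which 14249 genes did. Among them, limma with Benjamini-Hochberg adjustment at 0.05 called 72.1%: 36.1% of tested genes had their higher level in EMM and 36.0% in SOM. All 8 cranial mesenchyme markers (such as Prrx1 and Pdgfra) passed the filter in this tissue. Markers of other cell types were present too: those of red blood cells summed to between 152469 and 424567 in EMM libraries and between 81906 and 99421 in SOM libraries, and those of surface ectoderm to between 764 and 1048 in EMM and between 261 and 494 in SOM. The ectoderm markers did not move together: Krt8 (333 against 43.9) and Cdh1 (331 against 54.4) were higher in EMM, the 7 other tested members did not pass, and 7 of the 10 listed, among them Krt5 and Krt14, had a higher mean in SOM. In bulk RNA, fewer cells of a type and less RNA per cell cannot be told apart.

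On GRCm38, A2m lies on chromosome 6 from 121635376 to 121679227 and Cp on chromosome 3 from 19957054 to 20009145. Serping1 lies on chromosome 2 from 84765387 to 84775444, Clu on chromosome 14 from 65968483 to 65981547, and C3 on chromosome 17 from 57203970 to 57228136. Serpinf1 and Vtn are both on chromosome 11, from 75409769 to 75422701 and from 78499091 to 78502324. In the GENCODE annotation, 6 of the 7 share no exonic base and no run of 50 bases with the transcripts of another gene. The exception is Cp, of which 108 exonic bases lie in Hps3 and 0.618% of 50-base runs are shared with it.

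The sequences before the annotated starts of Cp, C3 and Vtn are shown because these genes represent the widest regional difference, the absence of a clear one, and the widest spread among libraries with groups apart. They are from RefSeq promoter windows of GRCm38.p6 (entries for 4 of the 7 genes, Cp, Serpinf1, C3 and Vtn, were matched by symbol), trimmed to the bases before the first annotated start: chr3:19956804-19957053 on the plus strand for Cp, chr17:57228137-57228386 on the minus strand for C3, and chr11:78498870-78499090 on the plus strand for Vtn. Capitals mark matches, on either strand, to TATAAA (the TATA box), TTCNNNGAA (a STAT site), TTGCNNAA (a C/EBP core) or TAATTA (a homeodomain core).
Cp: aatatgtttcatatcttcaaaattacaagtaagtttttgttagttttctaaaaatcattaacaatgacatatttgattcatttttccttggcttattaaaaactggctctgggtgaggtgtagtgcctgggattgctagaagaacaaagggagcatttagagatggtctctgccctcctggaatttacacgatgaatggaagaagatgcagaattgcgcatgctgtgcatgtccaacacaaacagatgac
C3: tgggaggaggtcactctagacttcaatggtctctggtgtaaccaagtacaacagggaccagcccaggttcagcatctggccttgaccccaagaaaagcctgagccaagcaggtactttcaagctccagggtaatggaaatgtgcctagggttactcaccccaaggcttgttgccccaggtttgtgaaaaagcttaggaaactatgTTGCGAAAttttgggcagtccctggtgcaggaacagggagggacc
Vtn: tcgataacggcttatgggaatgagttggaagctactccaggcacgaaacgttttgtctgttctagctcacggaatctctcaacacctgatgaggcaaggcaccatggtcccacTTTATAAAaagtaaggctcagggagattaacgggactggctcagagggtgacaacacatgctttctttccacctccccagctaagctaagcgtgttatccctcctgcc
In full windows of 250 bases before and 50 after a start, TATAAA occurs in 13.6% of 32851 RefSeq windows, TTCNNNGAA in 8.3%, TTGCNNAA in 10.8% and TAATTA in 5.29%. The Cp window shown held none of the 4 motifs, and a second, downstream Cp window held 1 TTGCNNAA match at position -70 (counted from 0 at the start base) and overlapping TATAAA matches. C3 had 1 TTGCNNAA match at -45 and 1 TATAAA match at 14. The TATAAA matches of Vtn overlap each other, and its 1 TTCNNNGAA match lay at 35, after the start. The Serpinf1 window held none of the 4. A match is a description of these letters only.

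All 7 genes passed the filter, C3 through exactly 4 libraries. Of the 7, 6 had higher counts in every EMM library than in any SOM library, and C3 did not. Groups lay apart for 66.1% of all tested genes, in this direction for 33.2% and in the other for 32.9%, and nothing is read from the count, since the genes were chosen on this contrast. The protease trap gene A2m stood at 1761, 1789, 2175 and 1951 in EMM replicates 1 to 4 and at 51.6, 27.3, 64.5 and 59.4 in SOM replicates 1 to 4. Its EMM mean was 37.9-fold the SOM mean (1919 ± 190 against 50.7 ± 16.5), with a log2 difference (SOM minus EMM) of -5.28 (SE 0.26). SOM replicate 2 was the lowest library for A2m, and no SOM library came near the EMM range.

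The ceruloplasmin gene Cp differed most. Its values were 1608, 1513, 1881 and 1769 in EMM, and 16.4, 16.1, 17.9 and 18.7 in SOM. The EMM mean was 98.1-fold the SOM mean, from 5523 EMM reads and 92 SOM reads, and the log2 difference was -6.53 (SE 0.10). The SOM libraries of Cp were close to each other, with a ratio of the highest to the lowest of 1.16. In the order of log2 differences from the most EMM-weighted gene on, Cp was at place 3 and A2m at place 10 of 14249 tested genes. The authors' deposited table gives Cp a log2 fold change of 6.42 and A2m one of 4.94, as EMM over SOM.

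Of the serpin genes, the C1 inhibitor gene Serping1 showed the wider regional difference. Serping1 stood at 2497, 2559, 2179 and 2436 in EMM, and at 647, 583, 673 and 612 in SOM, and its ratio of means (EMM over SOM) was 3.84. Serpinf1 stood at 5839, 6104, 5279 and 6095 in EMM, and at 3673, 3352, 4060 and 3457 in SOM, and its ratio of means was 1.6. The groups did not overlap for either gene, and EMM replicate 3 was the lowest EMM library for both. Log2 differences were -1.94 (SE 0.06) for Serping1 and -0.68 (SE 0.06) for Serpinf1.

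The chaperone gene Clu stood at 1128, 1247, 960 and 1228 in EMM and at 681, 532, 745 and 693 in SOM. Its ratio of means was 1.72 and its log2 difference -0.79 (SE 0.11), with the groups apart. As for Serping1 and Serpinf1, EMM replicate 3 was its lowest EMM library, and SOM replicate 2 was the lowest SOM library of all 3 genes.

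**Figure D1:**
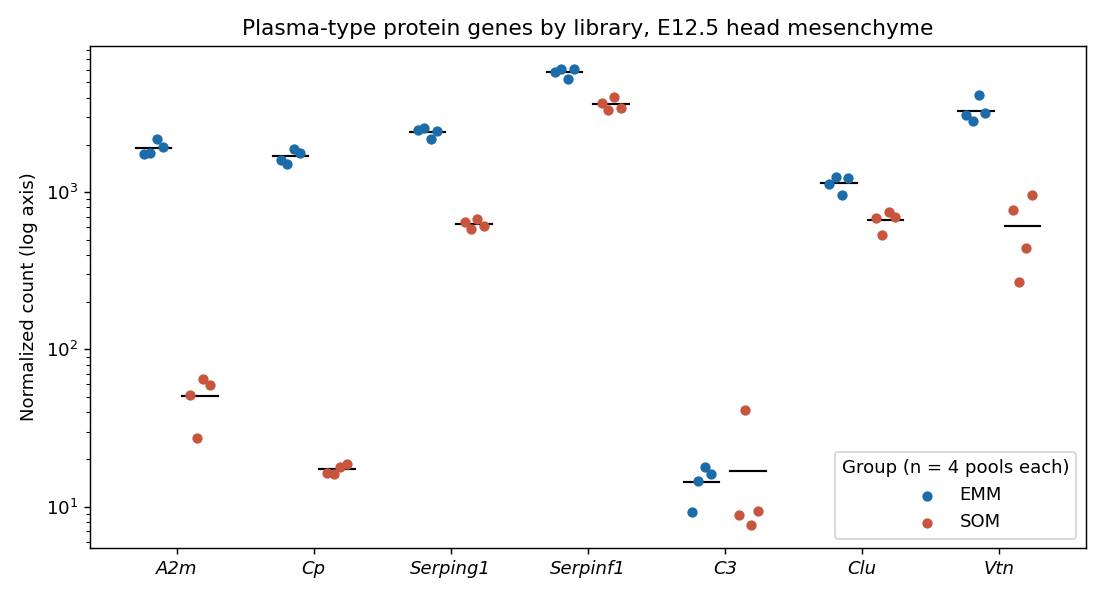
Normalized counts (log axis) of the 7 genes in each library of EMM (blue) and SOM (red), with black bars at the group means of 4 pools. All EMM points lie above all SOM points for 6 genes, most widely for Cp (98.1-fold) and A2m (37.9-fold), while the C3 groups overlap and SOM replicate 2 stands at 41.3.

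Vitronectin differed between regions and also varied between libraries of 1 region. Vtn stood at 3081, 2827, 4137 and 3176 in EMM, and at 767, 269, 444 and 954 in SOM. The means were 3305 ± 574 and 608 ± 309, a ratio of 5.43, and the log2 difference was -2.59 (SE 0.42). SOM replicate 2 was the lowest and SOM replicate 4 the highest within SOM, with 3.54 times between them, yet the highest SOM library stayed below the lowest EMM library. The coefficient of variation was 50.8% in SOM and 17.4% in EMM, beside a median of 6.62% and 5.72% over the 11266 tested genes with a mean of at least 100.

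The genes with the most similar profile to Vtn over the 8 libraries, by the distance of centred log2 values, were Parm1 (0.81) and the potassium channel gene Kcnj8 (0.97), a marker of pericytes. Parm1 stood at 156, 88.9, 118 and 214 in SOM replicates 1 to 4 and Kcnj8 at 54.1, 25.9, 39.6 and 45.4. Rgs5, another pericyte marker, stood at 29, 7, 16 and 54.8 there. SOM replicate 2 was the lowest SOM library for Vtn and for each of these 3 genes, and EMM replicate 3 the highest EMM library. Parm1 and Kcnj8 were picked for their likeness to Vtn over these libraries, so their shared extremes follow in part from the choice. Over the whole list of 10 pericyte and smooth muscle markers, which holds Kcnj8 and Rgs5, SOM replicate 2 was the lowest SOM library for 7 (not for Myh11, Abcc9 and Des) and EMM replicate 3 the highest EMM library for 4 (Pdgfrb, Rgs5, Kcnj8 and Abcc9). The same SOM library was also the lowest for A2m, Cp, Serping1, Serpinf1 and Clu, and the highest for C3. The shares of all tested genes with these libraries lowest or highest were not counted. Of the 10 markers, 9 were higher in EMM and 1 in SOM by limma, beside 36.1% and 36.0% of all tested genes. None of the markers was at 0, and their sum was 61200 to 69064 in EMM libraries and 10364 to 12293 in SOM libraries. Their part in the Vtn values was not tested.

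C3 was near the lower limit of measurement in both regions. It had 9.20, 14.5, 17.8 and 16.2 normalized counts in EMM, from 9, 8, 17 and 12 reads, and 8.81, 41.3, 7.66 and 9.35 in SOM, from 7, 59, 12 and 14 reads. SOM replicate 2 lay above all 7 other libraries. SOM replicate 4 lay just inside the EMM range, and SOM replicates 1 and 3 lay below every EMM library. The group means were 14.4 ± 3.72 and 16.8 ± 16.4, so that the mean was higher in SOM. The log2 difference was -0.11 (SE 0.45), pointing the other way, and it was -0.65 without SOM replicate 2. It also turned positive with edgeR (0.29) and DESeq2 (0.24) on recovered reads, and without SOM replicate 1, 3 or 4 (0.03 to 0.11) or with EMM replicates 2 and 3 and SOM replicate 4 all left out (0.21). The sign of the C3 difference thus depended on the setting and on which libraries were used.

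Several genes of neutrophils, the granulocytes of blood, also had their highest values in SOM replicate 2. S100a9 stood at 63.0, 334, 67.7 and 60.1 in SOM replicates 1 to 4, the granule gene Ngp at 30.2, 203, 25.5 and 20, and the lactoferrin gene Ltf at 13.9, 166, 23.6 and 20. Lyz2, a lysozyme gene of macrophages and neutrophils, stood at 120, 215, 110 and 118, with a higher mean in EMM (556). A list of 12 neutrophil genes, written after these values were seen, summed to between 131 and 211 in EMM libraries and between 321 and 1183 in SOM libraries. Of its 7 tested members, 2 (Ngp and Mmp9) were higher in SOM, beside 36.0% of all tested genes, and 5 did not pass. Each of the 12 was read in at least 1 library. Of the 12, 8 had their highest value of all libraries in SOM replicate 2, and Mmp9, Elane, Mpo and Retnlg did not. The share of all tested genes with their highest value in that library was not counted. Nothing is read from the 8, as the list was written with these values known. Mmp9 was lowest there within SOM, at 189, 111, 226 and 140 in SOM replicates 1 to 4. The part of such cells in the C3 value was not tested.

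**Figure D2:**
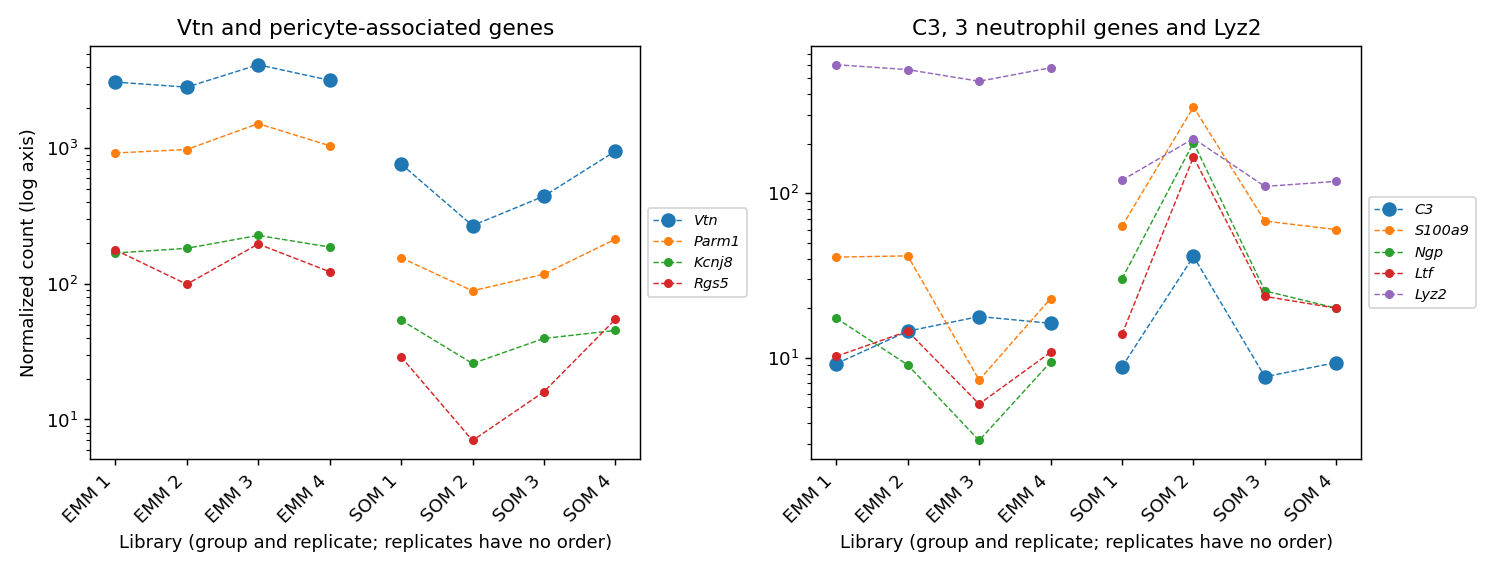
Normalized counts (log axis) by library for Vtn beside Parm1, Kcnj8 and Rgs5 (left) and for C3 beside S100a9, Ngp, Ltf and Lyz2 (right), with dashed lines joining libraries of a group only to guide the eye. SOM replicate 2 is the lowest SOM library of Vtn (269) and of the 3 genes beside it, and the highest SOM library of C3 (41.3) and of the 4 genes beside it. Parm1 and Kcnj8 were picked for a profile near that of Vtn. S100a9, Ngp and Ltf are from a list written after the values were seen.

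For the other genes, the closest profiles by the same distance were Cnn1 (0.79) and Diras2 (1.02) for A2m, and Calb2 (1.09) and Nell1 (1.54) for Cp. Cnn1, which encodes calponin of smooth muscle, stood at 1405, 1119, 1332 and 1447 in EMM and at 36.5, 30.8, 48.5 and 57.4 in SOM. SOM replicate 2 was the lowest SOM library of Cnn1 as of A2m, which follows in part from picking Cnn1 by its likeness to A2m. Calb2, which encodes the calcium-binding protein calretinin, stood at 383, 463, 459 and 504 in EMM and at 1.26, 3.50, 4.47 and 2.67 in SOM. Distances were far smaller for Serping1, with Rnase4 (0.12) and Cpq (0.13), and for Serpinf1, with Fmo1 (0.12) and Rcn3 (0.13). Those of Clu were 0.27 (Phf19) and 0.28 (Gusb). The nearest for C3 were Cecr2 (1.6) and Pgm2l1 (1.65). Candidates had a mean of at least 100, so genes at the low level of C3 could not be picked.

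Levels of the 7 genes were compared with each other as normalized counts per kb of exon. In EMM the order was Serpinf1 (2471 ± 164), Vtn (1628 ± 283), Serping1 (1040 ± 71.9), Clu (332 ± 38.3), A2m (273 ± 27.1), Cp (177 ± 17.2) and C3 (2.80 ± 0.723). Library ranges of neighbours overlapped only for Clu and A2m, and Clu was above A2m in 3 of 4 EMM libraries. In SOM, Serpinf1 was again first at 1541 ± 133 per kb. Vtn (300.0 ± 152) and Serping1 (271 ± 17.0) followed with overlapping ranges, and Clu came next at 193 ± 26.6. A2m (7.22 ± 2.35), C3 (3.26 ± 3.18) and Cp (1.80 ± 0.129) were last, and the ranges of A2m and C3, and of C3 and Cp, overlapped. With the longest transcript as length, the EMM order was the same, while in SOM Clu and Vtn changed places, as did Cp and C3. Without SOM replicate 2 or without SOM replicate 4, 2 of the 7 positions in SOM changed.

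**Figure D3:**
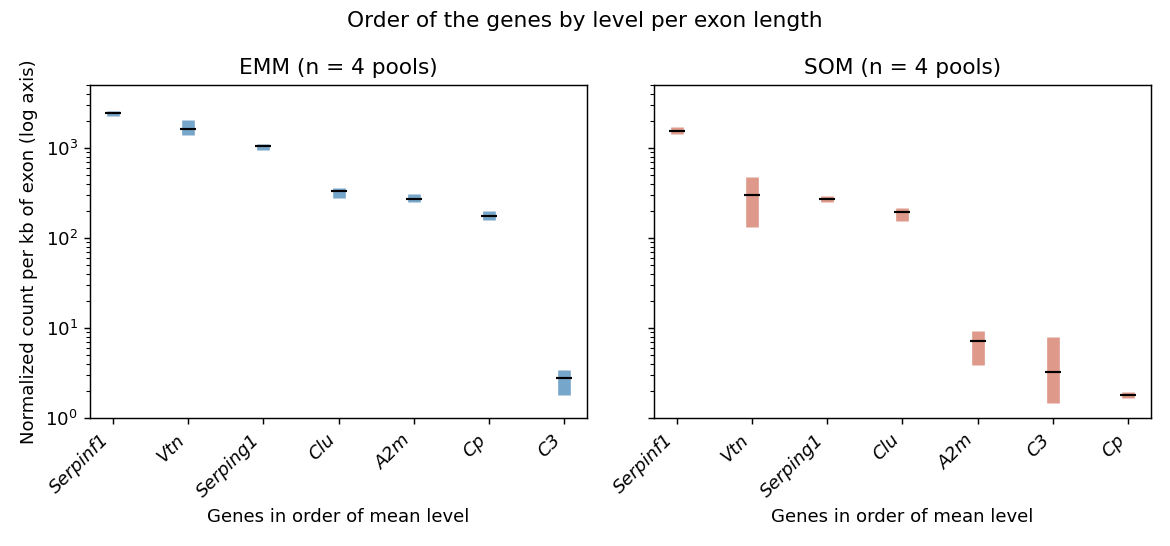
Normalized counts per kb of exon (log axis) of the 7 genes in EMM and SOM, each panel ordered by mean, with coloured bars from the lowest to the highest of 4 libraries and black ticks at the mean. Serpinf1 is first in both regions, and A2m and Cp stand at 273 and 177 in EMM against 7.22 and 1.80 in SOM.

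Complement starts from surfaces through the C1q complex or through lectins, runs through C2, C4 and C3, and is held back by membrane and soluble regulators. Of 25 tested complement genes other than C3, 17 had higher levels in EMM, 3 had higher levels in SOM and 5 did not pass, beside 36.1% and 36.0% of all tested genes, with a median log2 difference of -1.24 against 0.01 over all tested genes. A further 26 of the 51 matched genes were below the filter, among them those of the terminal pore, of which only C8g was tested (48.7 in EMM and 54.4 in SOM, limma adjusted p = 0.41). Among 13 tested activation genes, 9 were higher in EMM and 2 in SOM. The C1q chain genes C1qb and C1qc stood at 1237 ± 84.6 and 1283 ± 162 in EMM against 341 and 316 in SOM, and the lectin gene Fcna at 139 ± 17.6 against 10.7 ± 1.38 (limma adjusted p at most 4.46e-11). The C1 protease gene C1s, which encodes a target of the C1 inhibitor, had a log2 difference of -3.04, and C2 one of -2.91, both named after their values were seen. Properdin (Cfp), which stabilizes the alternative pathway, was higher in SOM by 0.62, at 229 against 148 (limma adjusted p = 0.000237). C4a was also higher in SOM, by 0.75 (limma adjusted p = 0.00699), a call lost when EMM replicates 2 and 3 and SOM replicate 4 were all left out (limma adjusted p = 0.0569), and over all alternatives its adjusted p ranged from 0.00519 to 0.0569.

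Of 7 tested regulators, 3 were higher in EMM and 1 in SOM, beside 36.1% and 36.0% of all tested genes. Cd55, which speeds the decay of complement convertases, ranged from 128 to 191 over EMM libraries and from 65.4 to 92.4 over SOM libraries, with means of 150 and 76.7 (limma adjusted p = 3.25e-05). Cd59a, which blocks the pore on membranes, was 2.84-fold and Cr1l, the rodent membrane regulator Crry, 1.63-fold higher in EMM (limma adjusted p at most 4.99e-08 for both). Csmd3, a large transmembrane protein with complement control domains, was higher in SOM by 1.26 (limma adjusted p = 0.00174), at 16.3 against 6.45. Only SOM libraries brought Csmd3 through the filter. All 5 tested genes listed as receptors of complement fragments were higher in EMM, with the smallest difference for Cd93 (-0.27, limma adjusted p = 0.0351). The count was 4 with the replicate number as a block and without EMM replicate 1 or SOM replicate 1, 2 or 3. Among the 5 were C5ar1 (-2.26), C3ar1 (-1.92) and Itgam (-1.29), these 3 with a limma adjusted p of at most 1.01e-05. Macrophages are known to make C1q and to carry these receptors. Of 12 macrophage markers, 11 were higher in EMM by limma and 1 did not pass, beside 36.1% of all tested genes higher in EMM. None of these markers was at 0, and their sum was 12707 to 16180 in EMM libraries and 2574 to 2944 in SOM libraries. Their part in the complement results was not tested.

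**Figure D4:**
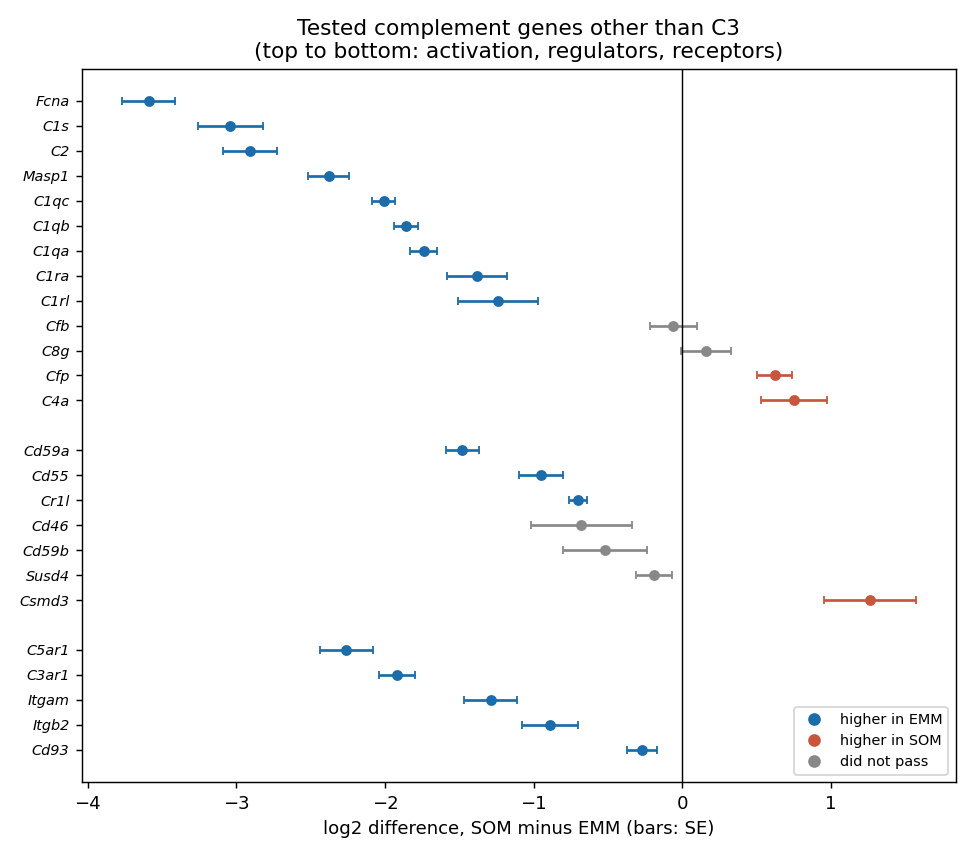
Log2 differences, SOM minus EMM (bars are SE), of the 25 tested complement genes other than C3, in blocks of activation genes, regulators and receptors, coloured by the limma call. Most points lie left of 0, with Fcna and C1s farthest left, and Cfp, C4a and Csmd3 are the 3 genes higher in SOM.

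Of 6 listed paralogs of A2m, 4 were matched in the table (A2ml1 and Cpamd8 were not analysed here) and 1 passed the filter. Mug1 and Mug2, the murinoglobulin genes, had 0 reads in all libraries, where 3 reads would come to 0.928 normalized counts over the EMM libraries and 0.567 over the SOM libraries. Pzp had 1.36 in EMM and 2.49 in SOM and was not tested. Cd109, a membrane-anchored member of the family, was 1.53-fold higher in EMM, at 1422 against 930 (limma adjusted p = 3.49e-06).

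Other serpins were called in both directions at shares near those of all tested genes (36.1% and 36.0%). Of 25 genes, 18 were below the filter, 8 of them at 0 in all libraries, and of the 7 tested 3 were higher in EMM and 3 in SOM. Serpine2, which encodes the thrombin and plasminogen activator inhibitor protease nexin-1, was higher in SOM, at 6588 ± 362 against 1429 ± 109, a 4.61-fold difference opposite to that of Serping1 and Serpinf1 (limma adjusted p = 3.04e-14). Serpinc1, the antithrombin gene, was 2.33-fold higher in SOM at low levels (42 against 18). Serpinh1, the collagen chaperone HSP47, was 1.51-fold higher in EMM, at 68277 against 45366 (limma adjusted p = 1.28e-08). Serpind1, the heparin cofactor gene, had 14.6 in EMM and 1.0 in SOM, from 45 and 6 reads (limma adjusted p = 1.06e-05), and passed the filter only through EMM libraries. The calls of Serpina3g (-0.90) and Serpini1 (0.53) had limma adjusted p-values of 0.0176 and 0.0185. The call of Serpina3g was lost when EMM replicate 1, SOM replicate 3 or SOM replicate 4 was left out (log2 differences -0.73, -0.77 and -0.73), and its adjusted p ranged from 0.00496 to 0.0672 over the alternatives. Leaving out EMM replicate 3, EMM replicate 4 or SOM replicate 4 ended the call of Serpini1 (0.45 each time), as did leaving out EMM replicates 2 and 3 with SOM replicate 4 (0.50), and its adjusted p ranged from 0.00755 to 0.0627.

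Ceruloplasmin oxidizes iron that leaves cells through ferroportin. Of 28 tested genes of copper and iron handling, 18 had higher levels in EMM, 4 had higher levels in SOM and 6 did not pass. Of all tested genes, 36.1% were higher in EMM and 36.0% in SOM. The median log2 difference of the 28 was -0.54, against 0.01 over all tested genes. The ferroportin gene Slc40a1 stood at 1144 ± 102 in EMM and 333 ± 26.7 in SOM, and the metalloreductase genes Steap3 and Steap2 were 4.01-fold and 1.83-fold higher in EMM (limma adjusted p at most 1.7e-08). Heph, which encodes the membrane paralog of ceruloplasmin, was 1.48-fold higher in EMM, at 1992 against 1342 (limma adjusted p = 2.11e-07, named after its value was seen). Bdh2, an enzyme of siderophore synthesis, was 2.77-fold higher in SOM. Sod1, a copper and zinc superoxide dismutase, and Commd1, which takes part in copper export, were higher in SOM by 0.44 and 0.33 (limma adjusted p at most 9.36e-05 for these 3). Macrophages also export iron through ferroportin, and the macrophage marker sums given above were higher in EMM as well, a part in these values that was not tested.

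Among 21 receptors and partners of the 7 proteins, 12 had higher levels in EMM, 5 had higher levels in SOM and 4 did not pass. The shares over all tested genes were 36.1% and 36.0%. The median log2 difference of the 21 was -0.52, against 0.01 over all tested genes. The vitronectin receptor subunit gene Itgav was 2.47-fold and Itgb1 2.45-fold higher in EMM (limma adjusted p at most 3.69e-09). Of the other listed integrin genes, Itgb8 (-1.50) was higher in EMM, while Itgb3 (-0.52) and Itgb5 (-0.10) did not pass. Plxdc2, a receptor reported for pigment epithelium-derived factor, was 2.94-fold higher in EMM (limma adjusted p = 1.44e-10). Its paralog Plxdc1 went the other way, with 2 EMM reads and 101 SOM reads, a depth-adjusted ratio of 30.9 (95% exact counting interval 8.32 to 258). Plxdc1 passed the filter only through SOM libraries. Vldlr, a receptor that binds clusterin, was 3.5-fold higher in SOM, and the laminin receptor gene Rpsa 1.38-fold (limma adjusted p at most 1.5e-06 for the 3 genes). Among other listed receptors, Lrp2 (-2.84) and Trem2 (-1.60) were higher in EMM and Lrp8 (0.54) in SOM, named after their values were seen. Lrp2 passed the filter only through EMM libraries.

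Most genes of liver-type plasma proteins were at or near 0. Of 34 listed, 27 were below the filter and 6 had no read in any library. Of the 7 tested, 5 were higher in EMM and 2 did not pass, beside 36.1% of all tested genes higher in EMM. The filter shaped this count: Apob and Itih3 passed it only through EMM libraries, and with no filter 6 were higher in EMM and 3 in SOM. The transferrin gene Trf stood at 899 ± 62.6 in EMM and 362 ± 20.2 in SOM, and Itih2, an inter-alpha-trypsin inhibitor heavy chain gene, at 131 ± 9.99 against 7.1 ± 2.47 (limma adjusted p at most 1.13e-10). Apob stood at 18.8 against 1.79 (limma adjusted p = 6.78e-06). The 8 liver cell markers, among them Alb, Afp and Hnf4a, were all below the filter and summed to 16.2 to 19.9 in EMM libraries and 13.9 to 17.4 in SOM libraries, with Fgb at 0 in all. Of 11 tested meninges markers, 9 were higher in EMM and 2 did not pass, beside the same 36.1% of all tested genes. The listed meninges markers summed to 46631 to 53958 in EMM libraries and 17151 to 18942 in SOM libraries, with none at 0. Their part in the values of the 7 genes was not tested.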

How the data were processed

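RNA-seq of 8 libraries (4 EMM, 4 SOM) was used, each from its own labelled pool. Shared embryos between EMM and SOM pools are not stated. Per the submitters' processing notes, bcl2fastq, STAR and DESeq2 were used with build mm10. The sources used here give no annotation, read counter or strand. Deposited by the authors were, per gene, a normalized count as signal (reads divided by a size factor), their log2 fold change with its standard error, a Wald score, and a p-value per gene. Dividing each column by its smallest nonzero entry gave whole reads for 100% of values within 1 ppm. Counting intervals and floors (3 reads) cover counting error only, as reads had no molecular identifiers.

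Genes with at least 10 in at least 4 libraries were fitted as log2(normalized count + 1) with limma 3.58.1 in R 4.3.3 (trend, robust), all 8 libraries, without covariate. Differences on that scale understate changes of low genes, and p-values measure the spread between pools. Adjusted p-values were called at 0.05. The fit was tested on simulated data with known changes. Replicates differed by more than sampling noise (chi-square per degree of freedom 3.59 to 18.8). Deviations of same-numbered libraries correlated weakly or not at all (-0.0199 to 0.126), which does not settle whether their pools shared embryos.

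The genes and all lists were chosen with earlier results of these data known, and 1 gene of the complement regulator list is not reported here. Named genes are the 7, measured paralogs of A2m, up to 3 per direction and list with the lowest adjusted p, and the 2 tested genes with mean of at least 100 nearest to each of the 7 in profile, 58 in all. Gene models came from GENCODE M21. Alternatives were edgeR 4.0.16, DESeq2 1.42.0 and limma-voom on recovered reads, a pseudocount of 5, filters, upper quartile scaling, a replicate block and leaving out libraries.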

Additional observations from a re-analysis of the deposited data

Results flagged for a closer look

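Among 112 groups of 4 libraries of the named genes, 6 held a library far from the other 3, where about 1 in 20 is flagged by chance. C3 stood at 41.3 in SOM replicate 2, with the next SOM library at 9.35, and Cecr2 at 131 there, with the next at 98.8. Cecr2 was picked for its likeness to the C3 profile, so its flag follows in part from that choice. Cr1l stood at 1027 in EMM replicate 2 (next 954) and Fcna at 166 in EMM replicate 4 (next 132). Serpine2 stood at 6047 in SOM replicate 3, below the next at 6741, and Serpind1 at 0 in SOM replicate 1, where the next had 1.28.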

How the results depend on the processing

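Of 808 values of 48 named tested genes under the alternatives, 800 kept their side of the threshold and 8 no longer passed, in C4a, Serpina3g and Serpini1. Cecr2 (-0.03) and Pgm2l1 (-0.05), which did not pass, changed sign under 4 alternatives and 1. With a filter at 50, complement activation genes higher in SOM came to 1, complement regulators higher in SOM to 0, other serpins to 1 in each direction, receptors and partners higher in SOM to 3 and liver plasma proteins higher in EMM to 2, as fewer genes were tested, and C3 had no value. With no filter, complement regulators higher in EMM came to 6, complement receptors higher in SOM to 1 and liver plasma proteins higher in SOM to 3. A pseudocount of 5 gave Cp -6.25. Length by longest transcript changed 4 positions of the SOM order, and leaving out each library in turn 0 to 2. Without EMM replicates 2 and 3 and SOM replicate 4, complement activation genes higher in SOM came to 1, and leaving out 1 library each kept 2. Depth limits C3, with 46 reads in EMM and 92 in SOM.

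With the replicate number as a block, 5146 genes were higher in EMM and 5103 in SOM, against 5149 and 5129 without it. Same-numbered libraries correlated at -0.0199 to 0.126 in their deviations, and EMM replicates 1 and 2, but not 3 and 4, correlated best with their own number. These values do not settle whether same-numbered pools shared embryos.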

Other observations

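Of 13185 genes with at least 20 normalized counts in SOM replicate 2, the ratio of that library to the highest other SOM library was largest for Olfm4 (11), Ltf (7.02), Ngp (6.71) and S100a9 (4.93). C3 was at place 6 of this order (4.42), between BC100530 (4.70) and S100a8 (4.25), and Stfa1, Camp, Stfa2l1, Stfa3 and Lcn2 were among the first 15 as well. The order was made after the C3 values were seen. C3 entered it only through its high value in SOM replicate 2, so nothing is read from its place. Most of the other genes named from this order are genes of neutrophils or their granules. Of the listed neutrophil genes, Mpo, Elane, Mmp9 and Retnlg did not have their highest value of all libraries in SOM replicate 2. Mpo had 27.3 there and 21.7 to 51.6 in the other SOM libraries, and Elane had 0.7 there and at most 2.55 elsewhere in SOM. Mmp9 had 111 there and 140 to 226 in the other SOM libraries, and Retnlg had 1.4 there and 2.04 in EMM replicate 1. The part of such cells in these values was not tested.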
